A study of Nicotiana tabacum with 18 samples.

Results

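The leaf transcriptome of the F1 hybrid K326×GDH11 (L) was compared with that of its male parent GDH11 sampled with the same cross (LP2), with 3 libraries in each group, 6 of the 18 RNA-seq libraries of the series. The gene set was fixed by expression alone. A gene was tested when its FPKM (a level scaled by transcript length and library size) was at least 1 in at least 3 of these 6 libraries, which held for 32312 of the 69500 genes listed. The other groups used below were the second hybrid G70×GDH11 (H), the GDH11 plants sampled with that cross (HP2), and the female parents K326 (LP1) and G70 (HP1), again with 3 libraries each. All were Nicotiana tabacum middle leaves at 70 days of growth, field-grown in the study's description, with no treatment applied to any group. GDH11 carries the same genotype label in LP2 and HP2 and is the male parent of both hybrids. Each library was described as leaves mixed from several plants of a plot, so it averaged over plants and leaf cell types, and fewer cells of a type cannot be told apart from less RNA per cell. The labels do not say that the 3 libraries of a group came from separate plots, and p-values therefore measure the spread between these libraries, which may be partly technical.

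An F1 plant carries a chromosome set from each parent, and its mRNA pool can therefore hold transcripts of both parents' alleles. Tobacco is an allotetraploid that joins the genomes of a pair of ancestral Nicotiana species, so many genes exist in near-identical copies whose reads are hard to assign, and the level of a single copy is uncertain for that reason. The study set out to follow leaf potassium in hybrids. Potassium is the main inorganic cation of plant cells, and its movement across membranes runs through channels such as AKT2, KAT and GORK, vacuolar channels such as TPK and TPC1, and K+/H+ exchangers such as KEA and NHX.

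The libraries were not of equal quality. In LP2 replicate 2, 27527 genes reached 1 FPKM and 44% were listed at 0, while each of the other 17 libraries had 31474 to 33091 genes at that level. On the first principal component of the 6 libraries, which carried 58.6% of the variance, LP2 replicate 2 lay at 165.9 and the others between -58.3 and -13.2. Pearson's r between libraries, across genes, was 0.907 to 0.973 within L, 0.803 to 0.936 within LP2 and 0.8 to 0.95 between the groups. The abundant gene Nitab4.5_0002207g0050 was listed at 0 in LP2 replicate 2 and in LP1 replicate 2, while it had 8040.29 to 11019.77 FPKM in L and 7088.89 and 8938.4 FPKM in the other LP2 libraries. A value of 0 in these files can thus occur in a gene that other libraries of the same genotype listed among the highest.

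The labels were also set against genes that are on in one parent and off in the other, with on meaning at least 2 FPKM and off at most 0.2 FPKM in every library, limits chosen after the values were seen. All 16 genes that were on in K326 and off in all 6 GDH11 libraries had a mean of at least 2 FPKM in L. Of the 4 genes on in all 6 GDH11 libraries and off in K326, 2 were present in L (Nitab4.5_0000069g0380 with a mean of 8.82 FPKM and Nitab4.5_0008647g0010 with 3.8 FPKM) and 2 were not (Nitab4.5_0000002g0110 with 0.07 FPKM and Nitab4.5_0002328g0050 with 0.0133 FPKM). The other hybrid had the same layout, as H means were 16.8, 7.14, 0.0433 and 0.0867 FPKM in this order. Nitab4.5_0000002g0110 was near 0 in H although HP2 and G70 had 8.36 and 9.32 FPKM of it on average. A further 13 genes were on in L but off in K326 and in GDH11. H was on average at 2 FPKM or more for all 13 of them, and G70 for 4. Where the transcripts of these genes came from was not tested. L thus held transcripts that both labelled parents lacked, and lacked 2 that GDH11 had. The parentage given by the labels was not tested, and statements below on the female or both parents refer to the libraries so labelled.

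Between L and LP2, 47 genes rose and 2 fell in L (limma on log2(FPKM + 1), Benjamini-Hochberg adjustment over all 32312 genes, calls at an adjusted p up to 0.05 and an absolute log2 fold change of 1 or above). That is 0.145% of the genes tested in the upward direction and 0.00619% in the downward one, 0.152% together. Without the adjustment 466 genes (1.44%) were higher and 298 (0.922%) were lower by the same fold. This balance turned with the scaling, to 274 higher and 519 lower genes after quantile normalization and 266 and 582 after median-of-ratios scaling, and to 336 and 542 without LP2 replicate 2. The 47 genes had log2 fold changes of 1.6 to 5.84 with a median of 2.71, against a median of 0.23 over all genes tested. The typical standard error of a gene was 0.33 (median), and those of the 49 called genes ran from 0.17 to 0.57. Fold changes on this scale understate the change of low genes, since 1 FPKM was added to every value.

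Most of the higher genes were at or near 0 in GDH11. The mean of LP2 was under 1 FPKM in 45 of the 47 genes, at most 0.2 FPKM in every LP2 library in 33, and listed at 0 in all 3 LP2 libraries in 11. For 30 of the 47 the limit of 0.2 FPKM held in all 6 GDH11 libraries, those of HP2 included. Among 202 genes that passed the filter only through L, with all LP2 libraries under 1 FPKM, 41 were called, and of 44 that passed only through LP2, 1 was called. Among the 25611 genes at 1 FPKM or more in all 6 libraries, 2 were called. A gene that passes only through the group where it is high had to differ, so these shares describe where the calls lie. With the test confined to those 25611 genes, limma called 0 genes, with 1414 at an unadjusted p of at most 0.05.

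**Figure D1:**
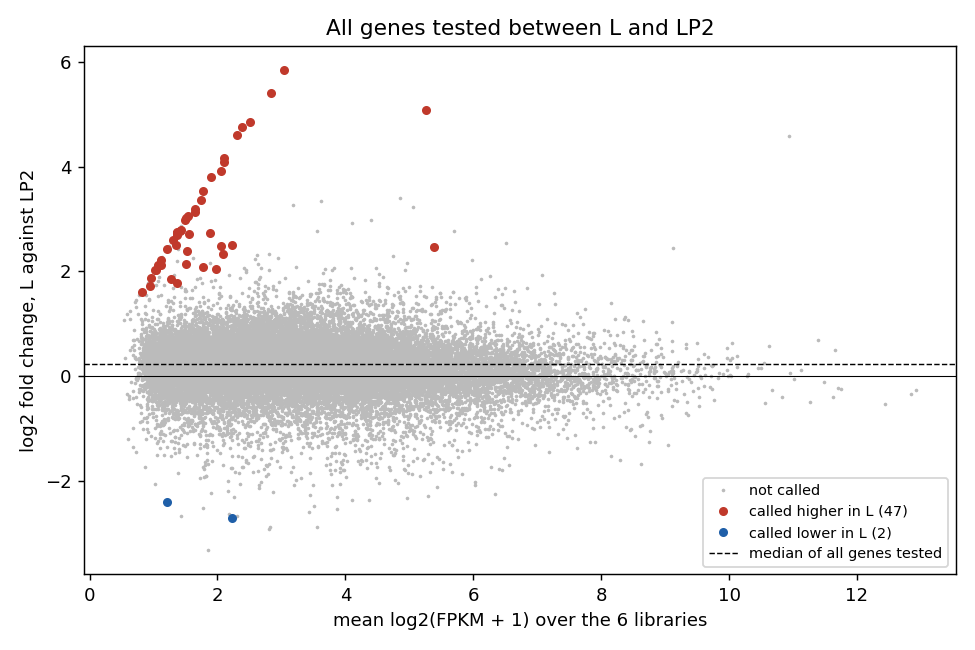
Each point is one of the genes tested, with its mean log2(FPKM + 1) over the 6 libraries on the horizontal axis and its log2 fold change of L against LP2 on the vertical axis. The 47 genes called higher lie mostly along the upper left edge, where the level in LP2 is close to 0, the 2 genes called lower lie at the bottom left, and the dashed line marks the median of 0.23.

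The number of calls depended on single libraries and on the design. L and LP2 libraries of the same number tended to depart from their group means together, most clearly in replicate 1. A fit that blocked on this number called 0 genes in limma. The 49 genes then had adjusted p-values of 0.066 to 0.182, all with an unadjusted p of at most 0.05, of 2318 such genes in all. With K326 added to the fit and the block kept, 54 genes were higher and 5 lower in L, including 40 of the 47 and both of the 2. Without LP2 replicate 2, the library that stood apart, 39 genes were higher and 10 lower, including 36 of the 47 and both of the 2. Without L replicate 2 or L replicate 3 the test called 0 genes, with 1054 and 747 genes at an unadjusted p of at most 0.05. It called 1 gene higher without LP2 replicate 1 or LP2 replicate 3, and 20 higher without L replicate 1. With quantile normalization 40 genes were higher and 9 lower, a shift of calls toward the lower side. The 49 genes kept their direction and an unadjusted p of at most 0.05 under all of these settings in which they were tested. They were chosen on these same libraries, with no overlap of L and LP2, so this was largely fixed by the selection.

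The strongest difference on the log2 scale was in Nitab4.5_0006376g0030. Its levels were 53.26, 74.21 and 58.60 FPKM in L, against 0.09, 0.04 and 0.13 FPKM in LP2 (log2 fold change 5.84 ± 0.24 SE, adjusted p = 0.0024). K326 had 64.46, 49.65 and 50.74 FPKM, which overlapped L, and the difference of L against LP1 was 0.17 on the log2 scale (adjusted p = 0.688). The gene was thus close to 0 in every LP2 library. L replicate 2 lay above all K326 libraries, and the remaining L libraries lay within the K326 range. The deposited tables give no gene name or function for this or the other called genes, and a RefSeq table of tobacco genes of assembly ASM71507v2 matched 0 of the identifiers, so they appear by identifier alone.

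A further set of genes had the same layout, present in L and K326 and absent in GDH11. Nitab4.5_0000302g0140 had 35.33, 23.18 and 21.90 FPKM in L and was listed at 0 in all 3 LP2 libraries, with 33.69, 45.58 and 23.37 FPKM in K326 (log2 fold change of L against LP2 4.77 ± 0.26, adjusted p = 0.0039). Nitab4.5_0002256g0020 had 17.98, 25.37 and 27.62 FPKM in L and was listed at 0 in all 6 GDH11 libraries (4.60 ± 0.25, adjusted p = 0.0039). Nitab4.5_0010482g0010 had 22.46, 16.01 and 13.06 FPKM in L, against 0.01, 0.10 and 0.04 FPKM in LP2 (4.08 ± 0.26, adjusted p = 0.00609). In all of these the L and K326 libraries overlapped. Nitab4.5_0000008g0430 had 16.14, 18.44 and 11.65 FPKM in L, against 0.09, 0.03 and 0.11 FPKM in LP2, with 16.79, 26.55 and 10.98 FPKM in K326 (3.91 ± 0.25, adjusted p = 0.00609). Nitab4.5_0004862g0060 had 9.72, 8.82 and 10.55 FPKM in L, against 0.00, 0.06 and 0.07 FPKM in LP2, and varied more in K326, with 12.31, 1.86 and 8.06 FPKM (3.36 ± 0.20, adjusted p = 0.00559). L lay within the range of its female parent for both.

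Of the 47 higher genes, 30 had a mean of at least 1 FPKM in K326 and 17 did not, a division made after the values were seen. Among the 30, the L libraries overlapped those of K326 in 18 genes, lay above all of them in 6 and below all of them in 6. The share of all genes without overlap between L and K326 was not computed, so these counts only describe the 30. The mean of L over that of K326 ran from 0.334 to 96.2 with a median of 1.13, and lay between 0.5 and 1.5 in 22 of the 30. Limma called 2 of the 30 higher and 0 lower in L against LP1, which shares the L libraries (0.235% of the genes tested there were called higher and 0.162% lower). In the genes where L lay below K326, it was still far above GDH11. Nitab4.5_0000287g0070 had 10.53, 6.43 and 5.80 FPKM in L and at most 0.01 FPKM in LP2, with 27.04, 18.14 and 22.91 FPKM in K326. Nitab4.5_0006949g0020 had 6.11, 5.68 and 4.93 FPKM in L and at most 0.02 FPKM in LP2, with 11.14, 18.90 and 9.50 FPKM in K326. Between the parents, in LP1 against LP2, 29 of the 47 genes were tested and 18 were called higher (background 0.0802%), and 1 of the 2 lower genes was called lower (background 0.0247%). This comparison shares the LP2 libraries, and 23 of the 29 genes passed its filter through K326 alone, so the direction of the higher calls was fixed by how the genes were chosen. The differences of L against LP1 in the 2 genes just named were -1.49 and -1.06 on the log2 scale and did not pass the test (adjusted p = 0.0757 and 0.117).

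**Figure D2:**
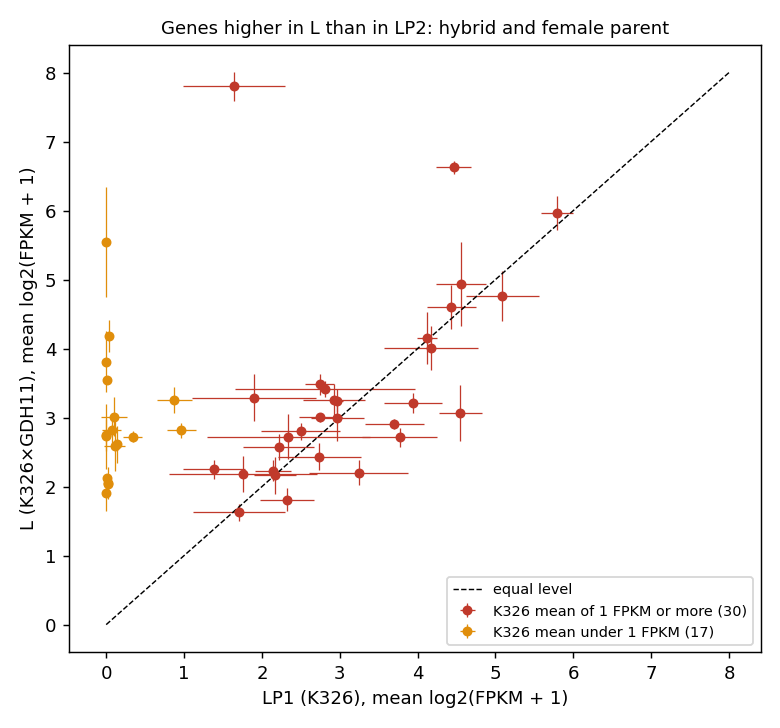
Each point is one of the 47 genes higher in L than in LP2, with the mean log2(FPKM + 1) in K326 (LP1) on the horizontal axis and in L on the vertical axis, and bars showing 1 SD over 3 libraries. The 30 genes with at least 1 FPKM in K326 scatter around the line of equal level, and the 17 genes under 1 FPKM in K326 form a column at the left edge.

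The 2 of these 30 genes that were also called higher than K326 differed from each other. Nitab4.5_0000697g0230 had 231.61, 188.85 and 248.76 FPKM in L, against 1.69, 12.61 and 6.89 FPKM in LP2 (log2 fold change 5.07 ± 0.57, adjusted p = 0.0389) and 0.86, 3.44 and 2.66 FPKM in K326 (6.16, adjusted p = 0.00279). It was the most abundant of the 47 genes in L, but it was abundant in the other cross too, at 26.71 to 209.82 FPKM in H and 91.64 to 506.28 FPKM in G70. Nitab4.5_0000804g0170 lay above both parents in both hybrids. Its levels were 95.83, 92.32 and 105.47 FPKM in L, against 15.36, 17.15 and 18.30 FPKM in LP2 and 19.65, 25.34 and 18.68 FPKM in K326, and no hybrid library came near a parental one. The log2 fold changes of L were 2.46 ± 0.21 against LP2 (adjusted p = 0.0112) and 2.16 against LP1 (adjusted p = 0.0108). In the G70 cross, H had 75.57, 90.64 and 73.15 FPKM, against 25.36, 18.53 and 21.75 FPKM in HP2 and 25.25, 25.44 and 25.34 FPKM in G70. Nitab4.5_0001327g0060 had the same order at lower levels, with 10.2 ± 1.21 FPKM in L, 5.73 ± 0.86 FPKM in K326 and 0.997 ± 0.413 FPKM in LP2 (SD, n = 3 each). It was called against LP2 (2.51 ± 0.26, adjusted p = 0.0298) but not against K326 (adjusted p = 0.114).

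The other 17 higher genes had means under 1 FPKM in both K326 and LP2. The L libraries lay above all K326 libraries in all 17, and all 17 were called higher in L against LP1 (0.235% of all genes were). This follows from the division itself, which set apart genes low in K326 among genes already high in L. The largest was Nitab4.5_0001013g0040, with 85.61, 38.64 and 28.80 FPKM in L, against 0.00, 0.33 and 0.00 FPKM in LP2 and 0 in all 3 K326 libraries (5.41 ± 0.43 against LP2, adjusted p = 0.00971). Nitab4.5_0004024g0020 had 15.78, 20.74 and 15.32 FPKM in L, against 0.00, 0.04 and 0.00 FPKM in LP2 (4.16 ± 0.23, adjusted p = 0.0039). Nitab4.5_0000492g0240 had 12.79, 9.39 and 18.14 FPKM in L and was listed at 0 in every LP2 and K326 library (3.81 ± 0.28, adjusted p = 0.00861). Nitab4.5_0007178g0020 had the tightest L values of these 4, at 11.17, 10.48 and 10.49 FPKM, against 0.00, 0.00 and 0.02 FPKM in LP2 (3.54 ± 0.20, adjusted p = 0.0039). None of these 4 genes exceeded 0.04 FPKM in a K326 library.

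These 17 genes were present in the other hybrid too. H had a mean of at least 1 FPKM in all 17 and lay above every HP2 library in all 17, and 14 were called higher in H against HP2, where 0.179% of all genes were. In most of the 17 no HP2 library reached 1 FPKM, so they passed that filter through H alone and their direction was fixed by it. The share of all genes with H above every HP2 library was not computed. G70 had under 1 FPKM in 11 of the 17 and at least 1 FPKM in 6. Nitab4.5_0001013g0040 had 73.39, 97.28 and 135.62 FPKM in H, against 0.29, 0.00 and 0.85 FPKM in HP2 and 0.00, 0.00 and 0.71 FPKM in G70, so that it was high in both hybrids and near 0 in all 3 parental genotypes. Nitab4.5_0007178g0020 had 19.63, 17.81 and 21.25 FPKM in H, against at most 0.01 FPKM in HP2, and was instead on in G70, with 11.88, 20.25 and 24.79 FPKM. Nitab4.5_0004024g0020 was likewise on in G70, at 40.39, 29.09 and 18.23 FPKM. Transcripts that were present in L, absent in its own labelled female parent and present in G70 are a measured fact of these libraries whose source was not tested. Over all 47 genes, the mean of L was above those of the 5 other groups in 18. The choice of genes high in L favours this order, and the share over all genes was not computed.

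**Figure D3:**
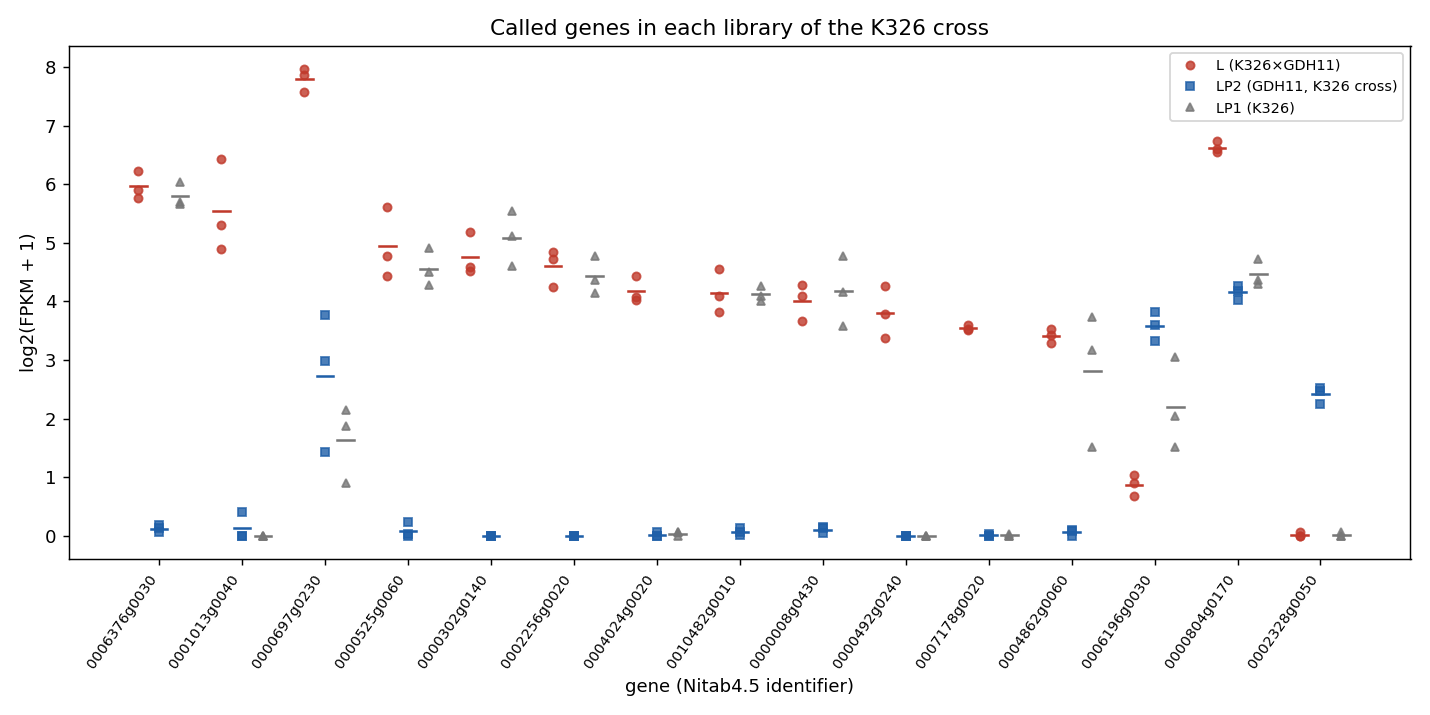
Each gene is shown with its 3 L libraries (circles, left), 3 LP2 libraries (squares, middle) and 3 K326 libraries (triangles, right) on the scale log2(FPKM + 1), with a bar at each mean. L lies above LP2 without overlap in 13 of the genes shown and below it in Nitab4.5_0006196g0030 and Nitab4.5_0002328g0050, while K326 lies near L in some genes and at 0 in others.

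Only 2 genes fell in L. Nitab4.5_0006196g0030 had 0.86, 1.04 and 0.61 FPKM in L, against 13.13, 9.04 and 11.06 FPKM in LP2 (log2 fold change -2.71 ± 0.25, adjusted p = 0.0149). K326 had 3.11, 7.27 and 1.85 FPKM, so the hybrid lay below every library of both parents, although the difference of L against LP1 of -1.33 did not pass the test (adjusted p = 0.141). In the G70 cross the same gene had 6.15, 4.09 and 5.80 FPKM in H, against 6.34, 10.69 and 8.65 FPKM in HP2, and was not called (-0.58, adjusted p = 1). Nitab4.5_0002328g0050 had 0.00, 0.00 and 0.04 FPKM in L, against 4.53, 3.74 and 4.75 FPKM in LP2 (-2.39 ± 0.19, adjusted p = 0.00971). It was on in all 6 GDH11 libraries and at most 0.19 FPKM in every library of both hybrids and both female parents, and it fell in H against HP2 as well (-2.20, adjusted p = 0.0183). With a pseudocount of 5 its log2 fold change was -0.90 and no longer met the fold limit.

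Several decreases of similar size missed the adjusted threshold. Nitab4.5_0007527g0020 had 0.13, 0.21 and 0.10 FPKM in L, against 18.33, 3.94 and 14.80 FPKM in LP2 (-3.32 ± 0.51, adjusted p = 0.13), with its lowest LP2 value in replicate 2. Nitab4.5_0002221g0040 had 0.08, 3.40 and 2.76 FPKM in L, against 17.43, 26.74 and 13 FPKM in LP2 (-2.88 ± 0.58, adjusted p = 0.381). Nitab4.5_0003978g0060 had 3.64, 2.10 and 4.71 FPKM in L, against 25.45, 58.04 and 19.75 FPKM in LP2 (-2.87 ± 0.45, adjusted p = 0.141). The groups did not overlap in these genes, which also held for 12.3% of all genes with L above LP2 and 2.63% with L below. Nitab4.5_0000002g0110 came closest to the threshold of the decreases named here, with 0.05, 0.00 and 0.16 FPKM in L, against 7.82, 3.31 and 7.36 FPKM in LP2 (-2.68 ± 0.32, adjusted p = 0.0527). Nitab4.5_0008261g0010 (-2.91 ± 0.82, adjusted p = 0.729) and Nitab4.5_0002195g0010 (-2.67 ± 0.34, adjusted p = 0.0683) complete the set. At the threshold itself, the last gene inside was Nitab4.5_0001813g0030, with 8.95 FPKM in L and 0.777 FPKM in LP2 on average (2.48, adjusted p = 0.0422), and the first outside was Nitab4.5_0000464g0140, with 1.74 FPKM in L and 0 in LP2 (1.45, adjusted p = 0.0516).

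The same male parent in other libraries gave a second view of the called genes. Set against HP2 in place of LP2, which shares the L libraries, 45 of the 47 higher genes were called higher (background 0.273%) and both lower genes were called lower (background 0.0881%). The 2 exceptions were Nitab4.5_0000880g0050 (1.48, adjusted p = 0.063) and Nitab4.5_0004694g0020 (0.03, adjusted p = 0.981). The 47 genes were chosen as high in these same L libraries, and the HP2 mean was under 1 FPKM in 40 of them. The direction of their calls against HP2 was thus largely fixed by the selection. Nitab4.5_0004694g0020 had 7.24, 4.29 and 5.64 FPKM in L and was listed at 0 in all 3 LP2 libraries, but HP2 had 7.18, 3.57 and 6.30 FPKM, which overlapped L. Between LP2 and HP2 themselves limma called 0 of 32535 genes (0%), with 758 at an unadjusted p of at most 0.05 and a smallest adjusted p of 0.587.

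In the cross of GDH11 to G70, which shares no library with the comparison of L and LP2, 31 of the 47 higher genes were again called higher, where 0.179% of all genes tested were. Of the 47, 39 reached the expression filter in H and HP2. In 30 of the 39 no HP2 library reached 1 FPKM, so they passed the filter through H alone and their positive log2 fold change was fixed by it. The other 8 of the 47 were too low in H and HP2 to be tested, so the count describes the tested genes and not all 47. Of the 2 lower genes, 1 was called lower (background 0.167%). Nitab4.5_0006376g0030 had 73.11, 41.88 and 58.39 FPKM in H, against 0.00, 0.00 and 0.10 FPKM in HP2, with a log2 fold change of 5.80 (adjusted p = 0.000585) beside 5.84 in L against LP2. Nitab4.5_0000302g0140 gave 4.68 in H against HP2 (adjusted p = 0.00091) and 4.77 in L against LP2. Without H replicate 3 and HP2 replicate 1, 35 of the 49 genes were called in H against HP2, against 32 with all libraries, while the share of all genes called was 2.72% in that fit. Leaving out single H or HP2 libraries brought this number to between 12 and 22, with the lowest without HP2 replicate 2 or HP2 replicate 3. H replicate 3 and HP2 replicate 1 had 32291 and 32230 genes at 1 FPKM, within the range of the other libraries. The fit without both is thus only 1 setting among several.

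**Figure D4:**
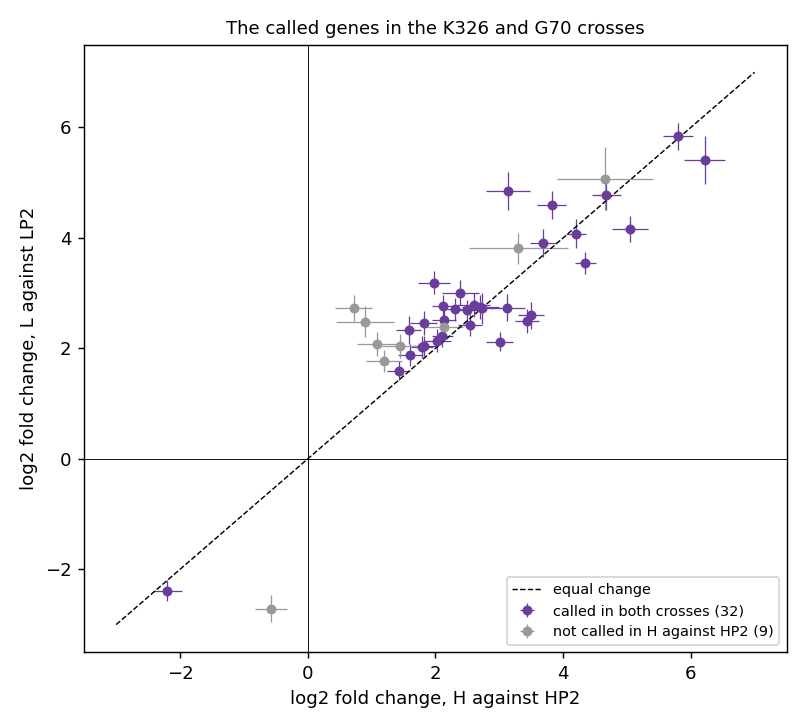
Each point is a gene called between L and LP2 that was also tested between H and HP2, with the log2 fold change in the G70 cross on the horizontal axis, that in the K326 cross on the vertical axis, and bars of 1 SE. All 39 higher genes lie to the right of 0, the 32 genes called in both crosses lie mostly near the line of equal change, and 9 genes were not called in the G70 cross.

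The difference between the hybrids' effects was tested in a fit over the 12 libraries of L, LP2, H and HP2. It called 23 genes, 19 with a larger and 4 with a smaller log2 fold change in L against LP2 than in H against HP2 (0.0674% of 34144 genes). Of the 49 genes, 7 were among them. The 49 were chosen for their change in L against LP2, which is part of this contrast. In all 7 every H and HP2 library was under 1 FPKM, so the count follows in part from the selection. Nitab4.5_0004862g0060 had 9.72, 8.82 and 10.55 FPKM in L, against 0.00, 0.06 and 0.07 FPKM in LP2, but 0.17, 0.32 and 0.08 FPKM in H, against 0.00, 0.08 and 0.00 FPKM in HP2 (difference 3.15, adjusted p = 0.000418). G70, the female parent of H, had 17.43, 25.40 and 10.92 FPKM of it, so the gene was on in both female parents and in L but close to 0 in H. Nitab4.5_0000287g0070 had the same layout, with 0 in all 3 H libraries and 23.11, 20.55 and 16.86 FPKM in G70 (difference 3.06, adjusted p = 0.00191). Nitab4.5_0003830g0030 instead was on in K326 alone among the parents, with 8.64, 7.26 and 8.92 FPKM in L, 11.64, 19.65 and 12.83 FPKM in K326 and at most 0.21 FPKM in every library of H, HP2 and G70 (difference 3.11, adjusted p = 0.000418). These 3 differences remained called without H replicate 3 and HP2 replicate 1 (adjusted p = 0.00919, 0.0458 and 0.00919) and the other 4 did not.

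The 49 called genes lay on 47 scaffold numbers as read from their identifiers, and 2 scaffold numbers held a pair each. On scaffold 0000525, Nitab4.5_0000525g0060 had 48.06, 20.61 and 26.26 FPKM in L, against 0.18, 0.00 and 0.02 FPKM in LP2 (4.85 ± 0.35, adjusted p = 0.00793). Nitab4.5_0000525g0040 had 5.12, 8.48 and 7.59 FPKM in L and was listed at 0 in every GDH11 library (2.99 ± 0.24, adjusted p = 0.00971). Both were on in K326, at 18.34 to 28.96 FPKM and 4.95 to 8.21 FPKM. Nearby identifiers on this scaffold differed in the same direction without being called, such as Nitab4.5_0000525g0010 with 126.72, 77.16 and 92.45 FPKM in L, against 31.64, 6.97 and 18.79 FPKM in LP2, whereas Nitab4.5_0000525g0090 had 12.3 FPKM in L and 12.2 FPKM in LP2 on average. On scaffold 0006949, Nitab4.5_0006949g0010 and Nitab4.5_0006949g0020 had means of 6.51 and 5.57 FPKM in L and 0.157 and 0.0133 FPKM in LP2. Their neighbour Nitab4.5_0006949g0030 had 2.08, 2.29 and 2.07 FPKM in L, against 0.10, 0.28 and 0.06 FPKM in LP2, and was not called. This run of 3 genes was also on in H, with means of 5.89, 4.91 and 2.07 FPKM, and at most 0.4 FPKM on average in HP2 and G70. Over the genes next to a called gene by identifier, 38 that were tested and not themselves called had a median log2 fold change of 0.32, beside 0.23 over all genes.

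Potassium transport genes were not among the calls. The list held 26 genes under 11 family labels. Of these, 24 were tested, 0 were called and 0 had an unadjusted p of at most 0.05 in L against LP2, where 0.152% of all genes were called and 3.72% were higher and 1.64% lower by that unadjusted p. Their log2 fold changes ran from -0.09 to 1.49 with a median of 0.50, and 23 of the 24 were positive, as were 72.9% of all genes. LP2 replicate 2 moved with this result. Without it, 15 of 25 tested genes were positive and the median was 0.05, equal to the 0.05 of all genes. In H against HP2, 6 of 24 were positive, the median was -0.17 and 0 were called.

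AKT2, a weakly rectifying K+ channel known in Arabidopsis for phloem K+ loading, was the most abundant of the channels. Its copy Nitab4.5_0001744g0070 had 75.21, 189.46 and 217.88 FPKM in L, against 106.94, 57.39 and 137.65 FPKM in LP2 (0.62, 95% interval -0.58 to 1.82, adjusted p = 0.791), and the groups overlapped. The second copy, Nitab4.5_0000816g0130, averaged 23.3 ± 4.64 FPKM in L and 18.7 ± 8.81 FPKM in LP2 (SD, n = 3 each). The qRT-PCR primers for Nitab4.5_0001744g0070 are printed because they mark the stretch of this transcript that was also measured by qRT-PCR. Those of Nitab4.5_0002239g0050 are printed because it alone among the 10 qRT-PCR genes had all L libraries above all LP2 libraries. All are written 5′ to 3′.
Nitab4.5_0001744g0070 forward: gtctgttaatttgctaactgttgct
Nitab4.5_0001744g0070 reverse: cagtggggttcttccttggg
Nitab4.5_0002239g0050 forward: aagtgaaggaggagggagtga
Nitab4.5_0002239g0050 reverse: gtctagcatctggaccaaccaa
Nitab4.5_0002239g0050 had 6.07, 6.86 and 6.87 FPKM in L, against 4.21, 5.18 and 5.97 FPKM in LP2 (0.32 ± 0.23, adjusted p = 0.791), a separation without overlap that 12.3% of all genes shared. The qRT-PCR list held 10 identifiers, and primers were listed for 9 of them, all but Nitab4.5_0006395g0030. Of the 10 genes 0 were called and 0 had an unadjusted p of at most 0.05, and their median log2 fold change was 0.21.

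The inward channels KAT1/2 and the outward channel GORK, which in Arabidopsis act in guard cells, were low and variable. Over the 4 KAT1/2 copies tested, log2 fold changes were 0.30 to 0.62, and the copy with the highest L mean, Nitab4.5_0005812g0020, had 8.27, 3.72 and 3.46 FPKM in L, against 5.68, 0.72 and 4.28 FPKM in LP2. Nitab4.5_0000777g0090, a GORK copy, had 9.99, 3.39 and 3.51 FPKM in L, against 12.52, 0.94 and 3.26 FPKM in LP2. A replicate 1 library was the highest and LP2 replicate 2 the lowest for both. The other GORK copy, Nitab4.5_0006940g0020, gave 0.39 ± 0.31. The KAT1/2 copies that missed the expression filter went the other way. Nitab4.5_0000010g0030 had 0.48, 0.45 and 0.16 FPKM in L, against 1.80, 0.51 and 1.32 FPKM in LP2, without overlap. Nitab4.5_0000420g0100 averaged 0.0633 FPKM in L and 0.197 FPKM in LP2. The vacuolar NHX1 exchangers, which move K+ into the vacuole in exchange for protons, gave 0.33 ± 0.39 (Nitab4.5_0002455g0040) and -0.09 ± 0.40 (Nitab4.5_0003067g0080). The vacuolar TPK channels gave 0.31 ± 0.39 (Nitab4.5_0005906g0010) and 0.54 ± 0.29 (Nitab4.5_0003491g0060). None of the tested genes in this paragraph was called or had an unadjusted p of at most 0.05 in limma.

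The protein kinases CIPK6 and CIPK5 belong to a family that acts with calcineurin B-like calcium sensors on ion channels, and the CIPK6 copies had the widest intervals of the 24 genes. Nitab4.5_0006408g0010 (CIPK6) had 134.83, 59.58 and 92.49 FPKM in L, against 113.27, 4.60 and 52.85 FPKM in LP2 (1.49, 95% interval -1.03 to 4.01). Nitab4.5_0004815g0040, its other copy, had 156.91, 48.33 and 80.72 FPKM in L, against 145.39, 6.54 and 64.05 FPKM in LP2 (1.05, 95% interval -1.50 to 3.60). The lowest value of each was that of LP2 replicate 2. Nitab4.5_0005171g0010 (CIPK5) had the smallest unadjusted p of the 24 genes, 0.0687 in limma, with 1.93, 4.54 and 7.23 FPKM in L, against 1.82, 0.12 and 2.55 FPKM in LP2 (1.19, 95% interval -0.12 to 2.50, adjusted p = 0.791). The other CIPK5 copy, Nitab4.5_0000462g0210, gave 0.37 ± 0.39. The KEA exchangers and TPC1 channels, the remaining families, all overlapped between L and LP2, with log2 fold changes of 0.27 to 1.05. These intervals do not show that the genes were alike in the hybrid and GDH11.

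**Figure D5:**
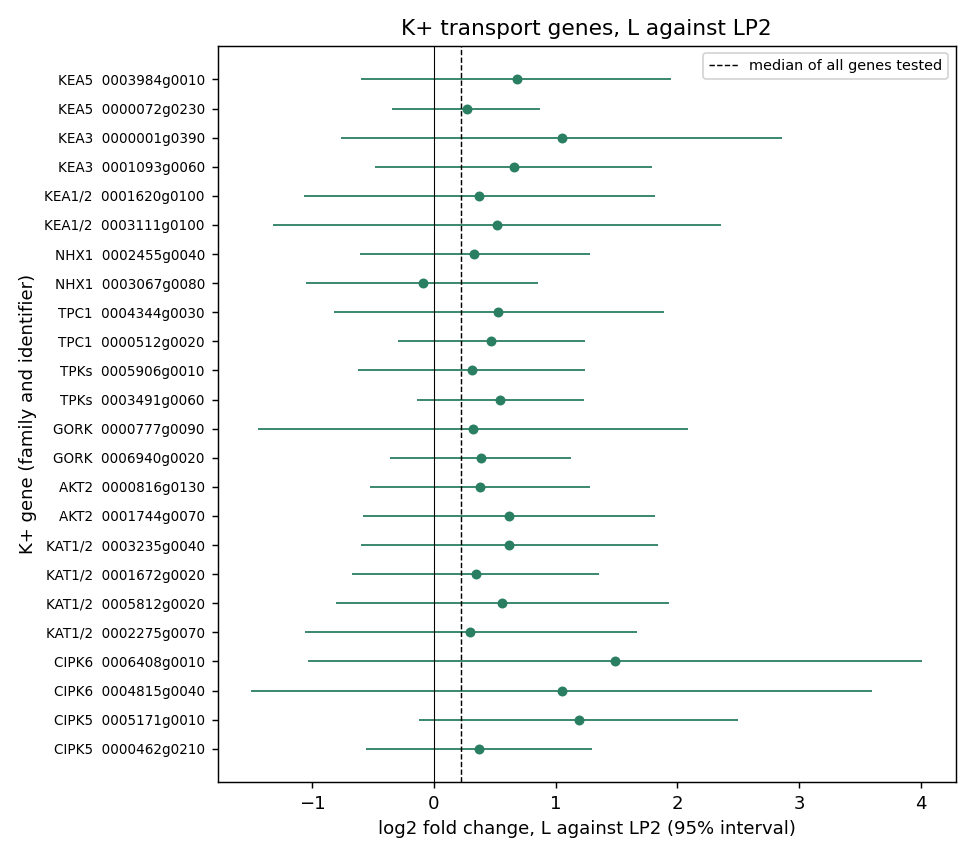
Points give the log2 fold change of L against LP2 for the 24 K+ transport genes tested, with bars for the 95% interval, in rows by family and identifier. Every interval crosses 0, and 23 of the 24 points lie above 0, all of these to the right of the dashed line at the median of all genes (0.23).

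The most abundant genes of the 6 libraries did not separate the groups either. Over the 5 genes with the highest mean FPKM, log2 fold changes ran from -0.53 (Nitab4.5_0005400g0020) to 4.59 (Nitab4.5_0002207g0050), and the L and LP2 libraries overlapped in each. The 4.59 rests on the value of 0 in LP2 replicate 2 and has a standard error of 3.34. Nitab4.5_0003771g0010, Nitab4.5_0000037g0340 and Nitab4.5_0009855g0010 gave -0.26, -0.34 and -0.41.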

How the data were processed

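Total RNA of middle leaves was sequenced as paired-end reads. The authors removed reads shorter than 25 nt, mapped to the K326 genome with TopHat2 and quantified genes with RSEM in the paper's methods, while the submitters' processing notes list HISAT2, StringTie and RSEM; no versions are given in the sources used here. The deposited series table holds FPKM rounded to 2 decimals for 69500 genes, although it is described as counts. FPKM sums were 768348.02 to 818036.71 per library in L and LP2. The depth behind a gene is unknown, so no counting interval was computed, and reads of near-identical copies may have been split by RSEM.

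Values were tested as log2(FPKM + 1) with limma 3.58.1 in R 4.3.3 (moderated variance with intensity trend, Benjamini-Hochberg over all genes tested, two-sided), using the 2 groups of each comparison and no block. Calls required an adjusted p up to 0.05 and an absolute log2 fold change of 1 or above. The script was tested on simulated data. The labels number the replicates of each group, and the study describes a field design in blocks. Deviations of same-numbered L and LP2 libraries from their group means correlated at 0.55, 0.26 and 0.23 across genes. Those of libraries with different numbers correlated at -0.44 to 0.15. The numbers were treated as a possible pairing, which these values do not settle, and values with the replicate block stand beside the counts. Alternatives covered scaling, pseudocount, filter, variance options, fits over more libraries and leaving out each library.

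Named genes were the 12 called genes per direction with the largest change, groups not overlapping and the higher mean at least 5 FPKM. Where fewer were called in a direction, up to 6 decreases that were not called were added. Also named were called genes sharing a scaffold number, the 5 most abundant genes, and K+ genes of at least 1 FPKM from 7 families; other genes were chosen after their values were seen. The members and lists were chosen with earlier results of these data known. The qRT-PCR genes were drawn by the study from its own calls on these samples, so they are not independent evidence.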

Additional observations from a re-analysis of the deposited data

Results flagged for a closer look

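The log2 fold change of L against LP2 differed from that of H against HP2 in 7 of the 49 called genes, by the test of the difference over 12 libraries (limma, Benjamini-Hochberg over 34144 genes). The differences, L minus LP2 minus the change of H against HP2, were 3.15 for Nitab4.5_0004862g0060, 3.11 for Nitab4.5_0003830g0030, 3.06 for Nitab4.5_0000287g0070, 2.26 for Nitab4.5_0002015g0090, 2.07 for Nitab4.5_0000011g0020, 1.89 for Nitab4.5_0008090g0030 and 1.76 for Nitab4.5_0006641g0020, with adjusted p-values of 0.000418 to 0.0176. All 3 L libraries lay above all 3 LP2 libraries in each of them, and H overlapped HP2 in each. None of the 7 reached the expression filter in the comparison of H with HP2 alone. Their difference therefore largely repeats the change of L against LP2 by which they were chosen. For Nitab4.5_0000287g0070 both were 3.06. With the replicate block, the first 3 of these genes kept adjusted p-values of 0.0054, 0.0054 and 0.0185, and the other 4 had 0.0713 to 0.0892.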

How the results depend on the processing

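All 49 called genes kept their direction and an unadjusted p of at most 0.05 in limma under every setting that tested them. This was largely fixed by their selection on the same libraries, in which L and LP2 did not overlap. The comparison as reported gave 47 higher and 2 lower genes. Quantile normalization gave 40 higher and 9 lower, and median-of-ratios scaling 44 and 6. There were 46 and 5 with a pseudocount of 0.1, and 30 and 1 with a pseudocount of 5. No filter gave 47 and 4, and at least 1 FPKM in all 6 libraries gave 0 and 0. Array weights gave 136 and 73, 9 libraries 82 and 7, 18 libraries 111 and 23, and unadjusted p 466 and 298. With the replicate block the counts were 0 and 0. With 9 libraries and the block they were 54 and 5, and with 18 libraries and the block 103 and 22. The fit over 9 libraries without LP2 replicate 2 gave 70 higher and 24 lower. Leaving out single libraries gave 0 to 39 higher and 0 to 10 lower genes. Over all genes the median log2 fold change, 0.23, was 0.01 after quantile normalization, -0.01 after median-of-ratios scaling, 0.12 with a pseudocount of 5 or no filter, 0.07 with array weights and 0.05 with 9 libraries without LP2 replicate 2. It lay between 0.05 and 0.32 with single libraries left out. The cause of these shifts was not tested.

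The difference between hybrids was called in 8 genes without H replicate 3 and HP2 replicate 1 and in 9 with the replicate block, against 23. Same-numbered H and HP2 libraries correlated at 0.61, -0.23 and 0.72 and those of L and LP1 at 0.09, -0.05 and 0.09. Whether the number pairs libraries in these comparisons was not settled. With the block 13 of the 49 genes were called in H against HP2 (32 without, and 35 without H replicate 3 and HP2 replicate 1). In L against LP1 the block left 0 of the 47 called (19 without). Leaving out single libraries gave 12 to 22 for H against HP2 and 3 to 19 for L against LP1.

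None of the K+ genes or the most abundant genes was called in the comparison as reported. Of the 24 K+ genes tested, 23 were positive there, 21 with quantile normalization and 13 with array weights; signs of single genes were followed only for the named genes. With quantile normalization the sign turned in Nitab4.5_0003771g0010 (0.49), Nitab4.5_0001672g0020 (0.00). With array weights the sign turned in Nitab4.5_0009855g0010 (0.48), Nitab4.5_0002455g0040 (-0.05), Nitab4.5_0000777g0090 (-0.17), Nitab4.5_0003235g0040 (-0.11), Nitab4.5_0001672g0020 (-0.12), Nitab4.5_0005812g0020 (-0.13), Nitab4.5_0002275g0070 (-0.28), Nitab4.5_0004815g0040 (-0.03). With 9 libraries without LP2 replicate 2 the sign turned in Nitab4.5_0009855g0010 (0.52), Nitab4.5_0002455g0040 (-0.11), Nitab4.5_0000777g0090 (-0.34), Nitab4.5_0005812g0020 (-0.03), Nitab4.5_0002275g0070 (-0.23), Nitab4.5_0004815g0040 (-0.18). With single libraries left out, log2 fold changes that turned sign ran from -0.75 to 0.53 in Nitab4.5_0003771g0010, -0.48 to 0.18 in Nitab4.5_0003067g0080, -0.08 to 0.52 in Nitab4.5_0005906g0010, -0.34 to 1.07 in Nitab4.5_0000777g0090, -0.04 to 0.59 in Nitab4.5_0001672g0020, -0.23 to 0.75 in Nitab4.5_0002275g0070, -1.02 to 0.25 in Nitab4.5_0000037g0340, -1.06 to 0.52 in Nitab4.5_0009855g0010, -0.11 to 0.56 in Nitab4.5_0002455g0040, -0.03 to 0.94 in Nitab4.5_0005812g0020, -0.18 to 1.96 in Nitab4.5_0004815g0040.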
